A study of Mus musculus with 4 samples.

Results

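The 33 genes described here encode the machinery of the unfolded protein response and the integrated stress response, and were taken from a written list of endoplasmic reticulum (ER) chaperones, stress sensors, transcription factors and their targets. They are 33 of the 24135 gene symbols or unnamed transcripts measured in bone marrow-derived macrophages of C57BL/6 mice. The list is fixed by name and uses no measured value, but it was chosen with earlier results of these data known. All 33 were found in the transcript tables, where they account for 44 entries, and the abundance of each gene is the sum of the FPKM of its entries (fragments per kilobase of transcript per 1000000 mapped reads).

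The unfolded protein response is started by 3 sensors in the ER membrane, IRE1 (Ern1), PERK (Eif2ak3) and ATF6 (Atf6), when proteins in the ER lumen are not folded as fast as they arrive. IRE1 splices the Xbp1 mRNA, ATF6 is cleaved to a free transcription factor, and both routes induce chaperones, disulfide isomerases and degradation factors. PERK phosphorylates the translation factor eIF2, as do related kinases that sense lack of amino acids, viral RNA or lack of haem, and this integrated stress response favours translation of Atf4, whose product induces amino acid synthesis genes and the feedback genes Ddit3, Trib3 and Ppp1r15a.

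The study sequenced 4 groups, with 1 library in each. Macrophages lacking Batf2 (Batf2-/-, called KO) or with the intact gene (Batf2+/+, called WT) were grown from bone marrow for 6 days in GM-CSF at 10 ng/ml and taken as the adherent cells. All 4 cultures then received IFN-γ at 10 ng/ml for 4 h, so no library shows cells without IFN-γ, and lipopolysaccharide (LPS) at 100 ng/ml followed for 3 h or for 0 h. The groups are named by genotype and hours of LPS, and series of 4 values run from KO and WT cells at 3 h to KO and WT cells at 0 h. With 1 library in a group there is no replicate check and no test, and the 95% intervals printed here come from the deposited limits, which cover counting and assignment error within a library only. LPS responses are therefore also responses of single cultures, and in such bulk RNA fewer cells of a type and less RNA per cell cannot be told apart.

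Depth, estimated from entries with a single read, was 30.7, 20.3, 28.0 and 24.8 in units of 1000000 reads. Batf2 itself was at 10.1 FPKM in KO and 234.3 FPKM in WT cells at 3 h, and at 0.26 FPKM in KO and 2.63 FPKM in WT cells at 0 h, so it was lower in both KO libraries. All 10 macrophage markers examined were detected in every library, and the 7 B and plasma cell markers, a cell type with a strong secretory stress programme, were under 1 FPKM in all 4. Markers of several other cell types differed between KO and WT cells at 0 h and some also at 3 h, and their values stand beside the results on genotype.

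Sequences of the promoters are shown because the ER stress response element is the known binding site through which ATF6 and XBP1 act on chaperone genes. The RefSeq promoter table for GRCm38.p6 held 30 of the 33 genes, with 250 bases before and 50 bases after each start. Motifs were searched on both strands. The ER stress response element (ERSE) was searched as CCAAT and CCACG with 9 free bases between them, its second form (ERSE-II) as ATTGG and CCACG with 1 free base between them, the unfolded protein response element as TGACGTGG, the cyclic AMP response element as TGACGTCA and the amino acid response element as TGATGNAAT, and no matches overlapped. ERSE matches were in 7 of the 30 genes, or 7 of their 32 promoters (Calr, Canx, Creld2, Dnajc3, Hsp90b1, Hspa5 and Pdia6), against 0.119% of 32851 promoters. ERSE-II matches were in Dnajb11 and Herpud1, against 0.0365% of promoters. The element is known for its action on chaperone genes, which the list names, so these shares are a description only. The matches are listed from 5′ to 3′ in the direction of the motif, with the fixed letters in capitals.
Hspa5: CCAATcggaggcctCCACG
Calr: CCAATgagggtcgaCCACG
Canx: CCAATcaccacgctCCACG
Creld2: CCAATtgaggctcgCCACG
Dnajc3: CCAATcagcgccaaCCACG
Hsp90b1, far match: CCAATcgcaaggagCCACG
Hsp90b1, near match: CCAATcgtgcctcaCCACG
Pdia6: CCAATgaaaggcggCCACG
Dnajb11: ATTGGcCCACG
Herpud1: ATTGGgCCACG

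Of the other motifs, the cyclic AMP response element was in Ppp1r15a alone among the 30 genes, against 1.79% of promoters. No listed gene held the unfolded protein response element or the amino acid response element as written here (0.676% and 0.965% of promoters), which says only that those letters are not in these windows. The promoters of Hspa5, Herpud1 and Ppp1r15a are printed in full, because their genes carry the results on LPS and on genotype, each as the 250 bases before the start on the gene's strand with the match in capitals. Hspa5 has its match 65 to 47 bases before the start, Herpud1 52 to 42 bases before it and Ppp1r15a 12 to 5 bases before it.
Hspa5, chr2:34771840-34772089, plus strand, GRCm38.p6: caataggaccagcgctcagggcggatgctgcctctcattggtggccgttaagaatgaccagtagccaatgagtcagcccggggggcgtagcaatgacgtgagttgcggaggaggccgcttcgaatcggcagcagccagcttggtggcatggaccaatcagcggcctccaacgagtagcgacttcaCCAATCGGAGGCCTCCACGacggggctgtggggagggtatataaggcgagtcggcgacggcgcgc
Herpud1, chr8:94386179-94386428, plus strand, GRCm38.p6: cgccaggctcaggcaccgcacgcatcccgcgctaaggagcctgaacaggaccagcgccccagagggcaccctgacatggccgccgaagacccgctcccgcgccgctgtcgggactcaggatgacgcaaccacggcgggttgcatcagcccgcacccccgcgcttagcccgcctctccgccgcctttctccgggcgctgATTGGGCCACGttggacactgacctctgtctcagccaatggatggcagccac
Ppp1r15a, chr7:45526269-45526518, minus strand, GRCm38.p6: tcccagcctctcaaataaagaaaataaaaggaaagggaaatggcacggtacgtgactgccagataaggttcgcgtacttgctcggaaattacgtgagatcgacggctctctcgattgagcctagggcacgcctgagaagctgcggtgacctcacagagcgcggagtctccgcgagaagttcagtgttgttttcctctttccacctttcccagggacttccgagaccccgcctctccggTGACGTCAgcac

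Most of the listed genes were detected in every library, at levels that ranged widely. Summed over the 32 genes with an estimate in all 4 libraries, the level was 2511 FPKM in KO and 2294 FPKM in WT cells at 3 h, and 2829 FPKM in KO and 2605 FPKM in WT cells at 0 h, which is 0.54%, 0.49%, 0.59% and 0.56% of all FPKM. In all, 28 genes had 1 FPKM or more in every library and 32 had it in at least 1 library, and 9 reached 100 FPKM in some library. Over all 24135 gene symbols or unnamed transcripts, between 9557 and 10758 had 1 FPKM or more in a library. The highest in every library was Calr, the calcium-binding lectin chaperone calreticulin. Much of the sum comes from a few such genes: Calr, Hspa5 and Hsp90b1 were at 586.0, 419.6 and 333.1 FPKM in KO cells at 3 h. Chac1, a glutathione-degrading enzyme and a target of ATF4, was lowest, at 0.27, 0.27, 0.54 and 0.31 FPKM, and was not compared.

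**Figure D1:**
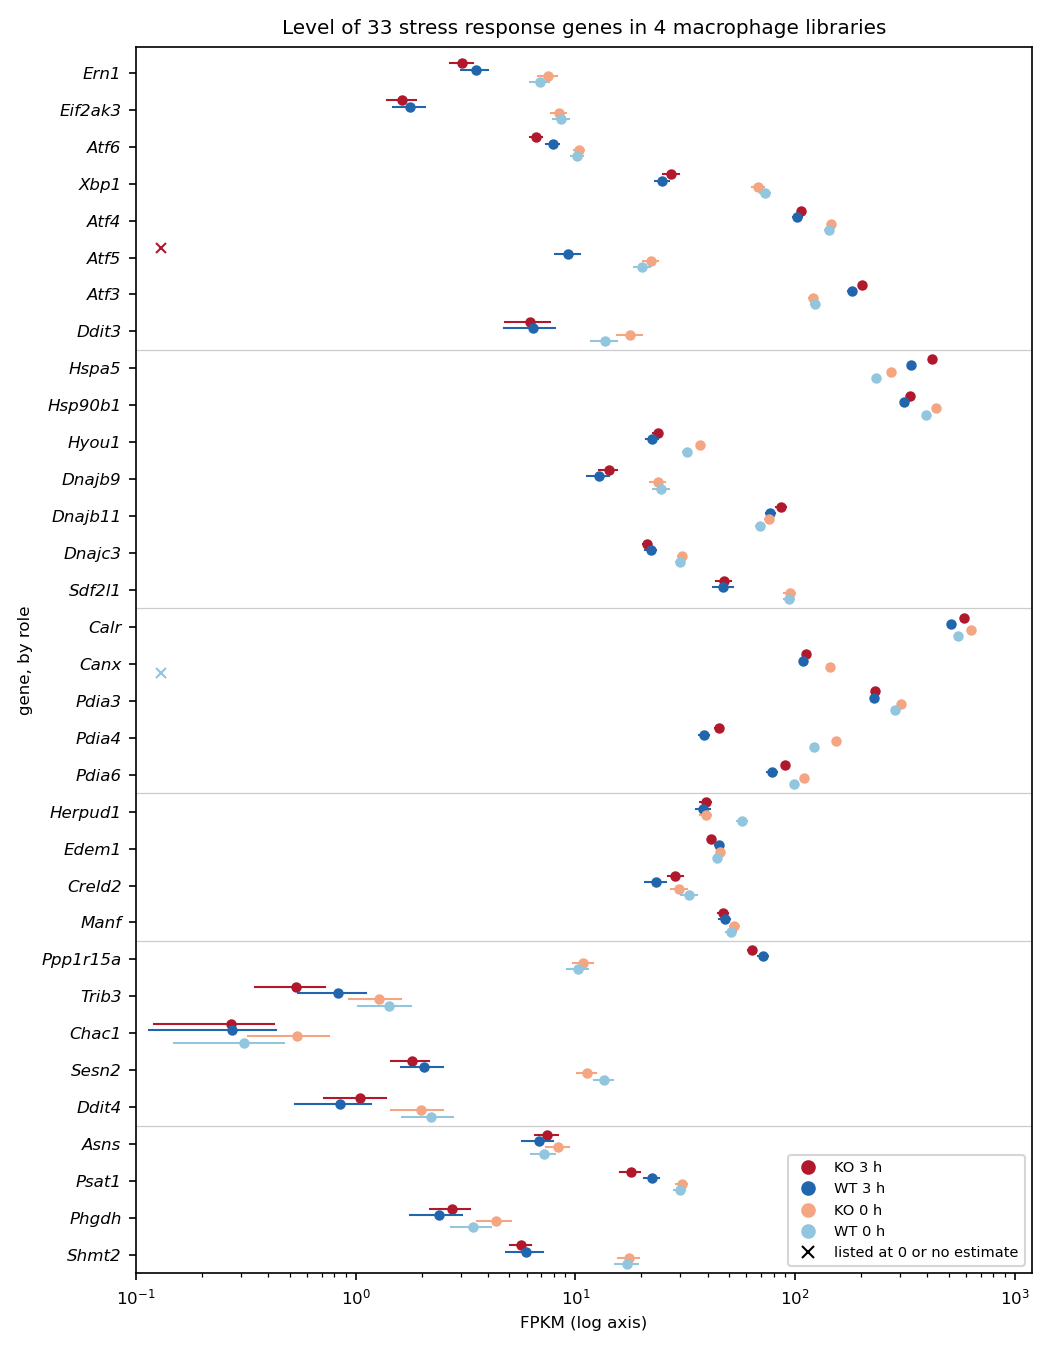
FPKM of the 33 genes (log axis), grouped by role, in KO 3 h, WT 3 h, KO 0 h and WT 0 h libraries; points are the values, lines the 95% intervals within a library, and crosses mark Atf5 in KO 3 h (listed at 0) and Canx in WT 0 h (no estimate). Most points of a gene lie close together, and the widest gaps are between 3 h and 0 h, for Ppp1r15a, Sesn2, Eif2ak3 and Pdia4.

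Treatment with LPS for 3 h went with a lower FPKM of most of these genes in both genotypes as deposited. Under the main settings this was less so than for the median gene, but not under every alternative given at the end. The difference, log2(FPKM + 1) at 3 h minus 0 h, had a median of -0.51 over 32 genes tested in KO and -0.43 over 31 in WT cells, beside -0.64 and -0.54 over all genes tested. A gene passed the size rule when its difference was at least 1 (2-fold) in size and its FPKM was 1 or more in a compared library. Its intervals as deposited also had to lie apart. In KO cells 1 listed gene passed as higher and 8 as lower, against 7.85% and 28.0% of all 10963 genes tested. In WT cells 1 passed as higher and 6 as lower, against 7.56% and 23.2% of 10845 genes, so in both genotypes the shares were below or near those of all genes. When each library was rescaled by its median ratio to the others, which moved the all-gene medians to -0.08 and -0.07, 13 of the 31 genes compared changed sign in each genotype. After it 3 genes passed as higher and 4 as lower in KO cells, against 13.0% and 10.2% of all genes, and 3 as higher and 3 as lower in WT cells, against 11.9% and 9.83%. The 13 genes that changed sign in each genotype all turned from lower to higher. Of these, 10 turned in both genotypes: Atf4, Hsp90b1, Hyou1, Dnajc3, Calr, Pdia3, Pdia6, Creld2, Manf and Asns. Canx, Herpud1 and Edem1 turned in KO cells, and Atf6, Psat1 and Phgdh in WT cells.

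The ER stress sensors were at a lower FPKM at 3 h than at 0 h. Eif2ak3, the kinase PERK, was at 1.63 and 8.40 FPKM in KO cells (3 h and 0 h) and at 1.77 and 8.60 FPKM in WT cells. The difference was -1.84 in KO (-2.01 to -1.67) and -1.79 in WT cells (-1.98 to -1.61), with 5.03% and 4.42% of genes lower, and it passed the rule in both also after rescaling. Ern1, the kinase and nuclease IRE1, was at 3.05 and 7.51 FPKM in KO cells and at 3.52 and 6.90 FPKM in WT cells. Its difference of -1.07 passed in KO cells as deposited but not after rescaling (-0.54), and -0.81 in WT cells did not pass. Atf6, the third sensor, was at 6.60 and 10.4 FPKM in KO cells and at 7.87 and 10.2 FPKM in WT cells. Its intervals at 3 h and 0 h did not overlap in either genotype, but the differences of -0.58 and -0.34 did not pass, and the one in WT cells turned to 0.15 with rescaling.

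Xbp1, the transcription factor that IRE1 activates by splicing, was at 27.3 and 67.9 FPKM in KO cells and at 24.8 and 73.3 FPKM in WT cells. Its difference was -1.29 in KO (-1.43 to -1.14) and -1.52 in WT cells (-1.65 to -1.40), so both genotypes lay lower at 3 h. It passed the rule in both as deposited and in neither after rescaling. The tables hold 2 Xbp1 entries, at 23.7 and 3.64 FPKM in KO and 24.8 and 0 FPKM in WT cells at 3 h, and at 54.9 and 13.1 FPKM in KO and 65.8 and 7.48 FPKM in WT cells at 0 h. The sources used here do not say which entry is the spliced form, so no spliced share is given.

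Atf4, the central factor of the integrated stress response, whose output is set largely by translation, was at 107.0 and 145.8 FPKM in KO cells and at 102.4 and 143.1 FPKM in WT cells. The differences of -0.44 and -0.48 lay near the middle of all genes, and both turned positive with rescaling (0.20 and 0.06). Atf3, a repressor induced by many stresses and by Toll-like receptor signals, was the highest of the stress factors at 3 h, with 202.6 and 120.2 FPKM in KO cells and 181.3 and 123.2 FPKM in WT cells. It was 1.69-fold higher at 3 h in KO (1.61 to 1.76) and 1.47-fold higher in WT cells (1.40 to 1.55), with 9.74% and 11.6% of genes above it. This did not pass the 2-fold rule as deposited and did after rescaling, in both genotypes.

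Ddit3, the pro-apoptotic factor CHOP, was at 6.19 and 17.8 FPKM in KO cells and at 6.40 and 13.7 FPKM in WT cells. Its difference was -1.39 in KO (-1.73 to -1.04), which passed as deposited but not after rescaling (-0.80), and -0.98 in WT cells (-1.37 to -0.60), which did not pass. All of its FPKM came from 1 entry at 3 h and from the other entry at 0 h, in both genotypes. It also shares 68 bases with Mars1, the methionyl-tRNA synthetase on the opposite strand, whose FPKM was 4.15 and 12.3 in KO and 4.70 and 12.3 in WT cells. The library kit keeps the strand per the labels, but whether counting used it is not stated.

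Atf5, a relative of Atf4 that is likewise controlled by translation, was listed at 0 in KO cells at 3 h and at 22.0 FPKM at 0 h, and at 9.29 and 20.1 FPKM in WT cells. Its protein-coding entry was at 0 in all 4 libraries, and the values come from an entry for a non-coding transcript of the gene. Atf5 shares 239 bases with Nup62 on the opposite strand, a nuclear pore gene at 20.2 and 35.6 FPKM in KO and 13.6 and 33.5 FPKM in WT cells. In WT cells the difference of -1.04 passed as deposited (-1.25 to -0.83) and not after rescaling. In KO cells it also passed the rule, but a value listed at 0 in such a table can be a failed estimate, so no fold is given.

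The ER chaperones of the HSP70 and HSP90 families did not move together. Hspa5, the HSP70 chaperone BiP that also holds the sensors inactive, was higher at 3 h, at 419.6 and 274.8 FPKM in KO cells and at 337.8 and 232.9 FPKM in WT cells. That is 1.53-fold in KO (1.49 to 1.56) and 1.45-fold in WT cells (1.40 to 1.50), with 11.0% and 11.9% of genes above it. It missed the 2-fold rule as deposited and passed it after rescaling in both. The WT value at 0 h includes 23.9 FPKM from a second Hspa5 entry, at 0 in the other libraries, and the leading entry alone was at 209.0 FPKM there. Hsp90b1, the ER HSP90 that folds Toll-like receptors and integrins, was at 333.1 and 437.3 FPKM in KO cells and at 312.7 and 396.4 FPKM in WT cells. Its differences of -0.39 and -0.34 turned to 0.25 and 0.20 with rescaling. Hyou1, the nucleotide exchange factor for BiP, was at 23.7 and 37.1 FPKM in KO and at 22.4 and 32.2 FPKM in WT cells, close to the middle of all genes, and its sign turned with rescaling.

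The J proteins, which hand clients to BiP, went in different directions. Dnajb11 was at 86.5 and 76.0 FPKM in KO cells and at 77.3 and 69.5 FPKM in WT cells, and was besides Hspa5 the only chaperone here at a higher FPKM at 3 h as deposited in both genotypes (differences 0.18 and 0.15). In KO cells this rests on a second entry, at 11.2 FPKM at 3 h and at 0 in the other 3 libraries: the leading entry alone was at 75.3 and 76.0 FPKM, a difference of -0.01. Dnajb9, which binds IRE1 and represses it, was at 14.2 and 23.8 FPKM in KO and at 12.7 and 24.5 FPKM in WT cells. Dnajc3, which inhibits eIF2 kinases, was at 21.1 and 30.6 FPKM in KO and at 22.0 and 30.1 FPKM in WT cells, and its sign turned with rescaling in both. Sdf2l1, a partner of the J proteins in the ER, was close to 2-fold lower at 3 h in both, at 47.3 and 94.6 FPKM in KO and at 47.2 and 94.0 FPKM in WT cells. Its differences of -0.98 and -0.98 did not pass.

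Among the lectin chaperones and disulfide isomerases, Pdia4 stood apart. It was at 45.2 and 153.6 FPKM in KO cells and at 38.6 and 122.0 FPKM in WT cells. This is 3.40-fold lower at 3 h in KO and 3.16-fold lower in WT cells (differences -1.74, -1.81 to -1.67, and -1.64, -1.73 to -1.54), with 6.03% and 6.13% of genes lower, and it passed in both also after rescaling. Pdia3 and Pdia6 make and rearrange disulfide bonds as Pdia4 does, and their values were much closer. Pdia3 was at 232.1 and 303.3 FPKM in KO and at 227.8 and 284.6 FPKM in WT cells, and Pdia6 was at 90.3 and 109.7 FPKM in KO and at 78.8 and 99.1 FPKM in WT cells. Calr was at 586.0 and 633.7 FPKM in KO and at 512.0 and 549.7 FPKM in WT cells, and Canx, its membrane-bound counterpart calnexin, was at 111.8 and 144.1 FPKM in KO cells and at 109.2 FPKM in WT cells at 3 h, with no estimate in WT cells at 0 h. For Calr, Pdia3 and Pdia6 the differences lay between -0.38 and -0.10 as deposited and turned positive with rescaling in both genotypes.

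The secreted and degradation factors had group medians of -0.09 in KO and -0.29 in WT cells, which rescaling moved to 0.54 and 0.24. Herpud1, which assembles the ER degradation complex, was at 39.2 and 39.2 FPKM in KO cells and at 38.1 and 57.4 FPKM in WT cells. Edem1, which directs misfolded glycoproteins to degradation, was at 41.6 and 45.6 FPKM in KO and at 44.9 and 44.4 FPKM in WT cells. Creld2, a secreted disulfide isomerase relative, was at 28.6 and 29.6 FPKM in KO cells and at 23.4 and 33.1 FPKM in WT cells. Manf, a secreted factor that binds BiP, was at 47.2 and 53.0 FPKM in KO and at 47.8 and 51.0 FPKM in WT cells. None of the 4 passed, and for Herpud1 and Creld2 the 3 h and 0 h intervals overlapped in KO cells and lay apart in WT cells.

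The feedback and effector genes held both ends of the list among genes above 0 in the libraries compared. Ppp1r15a, the GADD34 subunit that recruits a phosphatase to eIF2 and so ends the integrated stress response, was at 63.6 and 10.9 FPKM in KO cells and at 71.7 and 10.3 FPKM in WT cells. It was 5.86-fold higher at 3 h in KO (5.25 to 6.53) and 6.95-fold higher in WT cells (6.17 to 7.84), with 2.69% and 2.06% of genes above it. Sesn2, sestrin 2, a stress-induced inhibitor of mTORC1 that senses leucine, was at 1.80 and 11.3 FPKM in KO cells and at 2.05 and 13.5 FPKM in WT cells. It was 6.25-fold lower in KO and 6.56-fold lower in WT cells (differences -2.13, -2.36 to -1.90, and -2.24, -2.50 to -1.99), with 2.75% and 1.91% of genes lower. Both genes passed in both genotypes with and without rescaling. Trib3, a pseudokinase that restrains ATF4, was at 0.54 and 1.27 FPKM in KO and at 0.83 and 1.41 FPKM in WT cells. Ddit4, the mTORC1 inhibitor REDD1, was at 1.04 and 1.97 FPKM in KO and at 0.85 and 2.20 FPKM in WT cells, and neither it nor Trib3 passed.

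Of the amino acid synthesis enzymes that ATF4 drives, Shmt2 passed as lower in both genotypes. Shmt2, the mitochondrial serine hydroxymethyltransferase, was at 5.66 and 17.6 FPKM in KO cells and at 5.97 and 17.2 FPKM in WT cells, a difference of -1.48 in KO and -1.39 in WT cells. It passed as deposited only, since -0.90 in both after rescaling does not reach the rule, and its leading entry differs between libraries. Psat1, the phosphoserine aminotransferase, was at 17.8 and 30.5 FPKM in KO and at 22.3 and 29.9 FPKM in WT cells. Phgdh, the first enzyme of serine synthesis, was at 2.74 and 4.34 FPKM in KO and at 2.41 and 3.42 FPKM in WT cells. Asns, asparagine synthetase, was at 7.45 and 8.34 FPKM in KO and at 6.82 and 7.18 FPKM in WT cells, with overlapping intervals in both.

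The response to LPS was alike in size in both genotypes. Across the 30 genes tested in both and above 0 in all libraries, the KO and WT differences had a correlation of 0.970 across genes and the same sign in 29. Over 10520 genes of the whole table the correlation was 0.963, with the same sign in 9859. These are descriptions, since genes are not independent replicates and the genes share their libraries. The median gap between the 2 differences was 0.116 for the listed genes, against 0.157 for all genes.

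**Figure D2:**
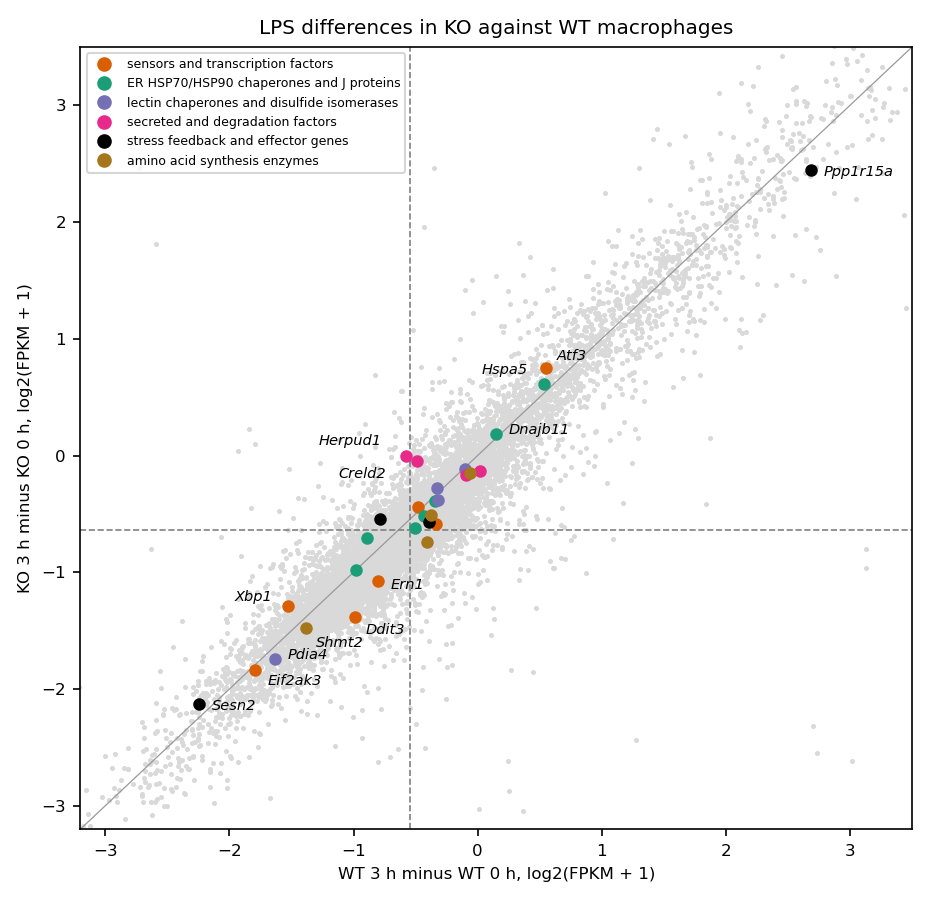
Difference between 3 h and 0 h of LPS, log2(FPKM + 1), in WT (horizontal) and KO cells (vertical); grey points are all genes tested in both, coloured points 30 listed genes by role, dashed lines the all-gene medians and the diagonal equal values. Ppp1r15a lies at 2.68 in WT and 2.45 in KO cells, Sesn2 at the other end, and Herpud1 and Creld2 above the diagonal.

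Genes with an ERSE or ERSE-II match lay higher in the LPS comparison than the rest of the list. All 9 were above the all-gene median in KO cells, with differences between -0.52 and 0.61 and a median of -0.11. In WT cells 7 of 8 were above it, with a median of -0.33, since Canx had no estimate there. Of the 21 genes with a promoter in the table and no match, 9 of 19 were above the all-gene median in KO cells (median -0.71) and 9 of 20 in WT cells (median -0.80), counting only genes above 0. The match-bearing genes are all chaperones or co-chaperones, an isomerase, a secreted factor or a degradation factor, so the match and the role go together. The 5 genes of the same roles with a promoter in the table and no match were Dnajb9, Sdf2l1, Pdia3, Pdia4 and Edem1. Of these 2 were above the all-gene median in each genotype, with a median of -0.71 in KO and -0.89 in WT cells. These sets hold 9 and 5 genes only, and no test was made. Promoters of the listed genes were also richer in G and C than all promoters, with a median of 64.0% against 52.7%, and the part of base composition in the counts was not tested.

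**Figure D3:**
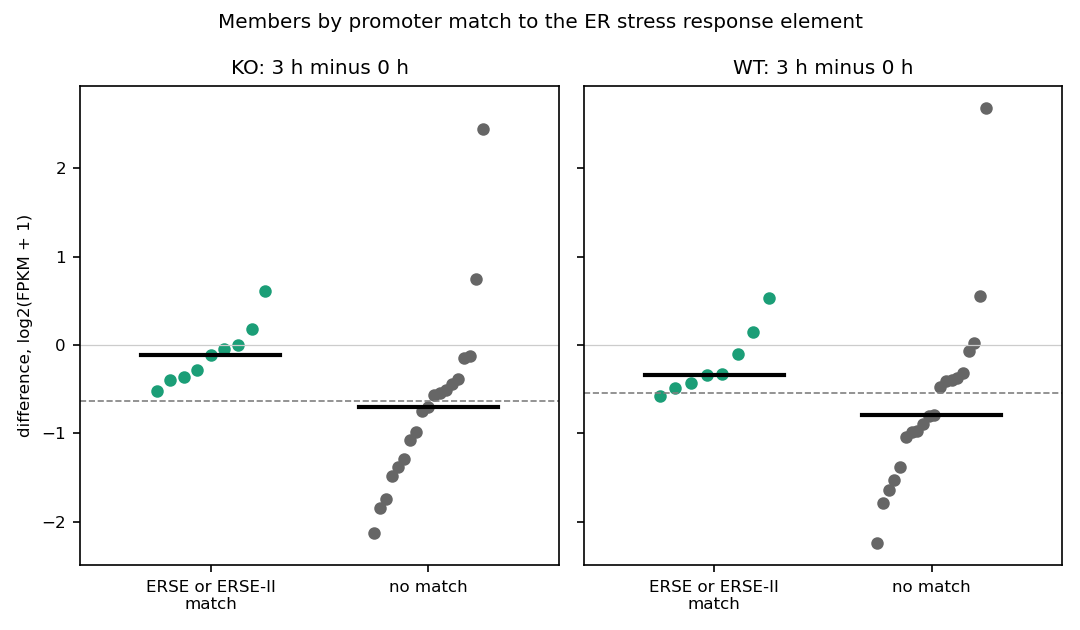
Difference between 3 h and 0 h of LPS, log2(FPKM + 1), for listed genes with and without an ERSE or ERSE-II match in the promoter window, in KO (left) and WT cells (right); points are genes in order of value, black bars medians and dashed lines the all-gene medians. The 9 genes with a match lie above the dashed line in KO cells, and Ppp1r15a is the highest gene without a match.

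Loss of Batf2 went with small differences in this machinery. At 3 h of LPS, KO minus WT was above 0 for 19 of 31 genes tested, with a median of 0.04, beside -0.07 over all genes. After rescaling, the median of the listed genes was 0.12, and 4 signs turned (Ddit3, Dnajc3, Manf and Shmt2). No listed gene passed the size rule as higher and 1, Atf5, passed as lower, against 0.734% and 0.724% of all 9808 genes tested. Atf5 is the gene listed at 0 in KO cells at 3 h, and with such genes left out no listed gene passed. Without the size condition, the deposited intervals lay apart with KO higher for 8 genes and with KO lower for 5, against 8.69% and 16.8% of all genes.

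Of the 8 genes higher in KO cells at 3 h, 7 belong to the 16 chaperones, isomerases, secreted and degradation factors, and the other was Atf3. Hspa5 was 1.24-fold higher in KO cells (1.21 to 1.27), at 419.6 FPKM against 337.8 FPKM in WT cells. Creld2 was 1.22-fold higher (1.07 to 1.40), Pdia4 1.17-fold (1.09 to 1.26), Pdia6 1.15-fold (1.08 to 1.22) and Calr 1.14-fold (1.12 to 1.17). Dnajb11, Atf3 and Hsp90b1 completed the 8, at 1.12-fold, 1.12-fold and 1.07-fold, but the leading Dnajb11 entry alone was not higher in KO cells (difference -0.04). The 5 with KO lower were Atf5, Psat1 (0.799-fold, 0.704 to 0.907), Atf6 (0.838-fold, 0.763 to 0.921), Ppp1r15a (0.888-fold, 0.833 to 0.947) and Edem1 (0.926-fold, 0.880 to 0.974). All of these are under 2-fold besides Atf5, and how much separate cultures of 1 genotype vary is not known from 1 library in each group.

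At 0 h, before LPS, KO minus WT was above 0 for 22 of 31 genes, with a median of 0.04, beside -0.00 over all genes. After rescaling the median was 0.02, and the sign of Sdf2l1 turned. No listed gene passed in either direction, against 1.33% of all 10846 genes passing as higher and 0.387% as lower. The deposited intervals lay apart with KO higher for 7 genes, against 9.87% of all genes, and with KO lower for 1, against 9.26%. Those of Pdia6 overlapped. Moved onto the FPKM they lay apart with KO higher, at 105.9 to 113.4 FPKM in KO and 95.5 to 102.7 FPKM in WT cells. Pdia4 was 1.26-fold higher in KO cells (1.21 to 1.31), Hspa5 1.18-fold (1.14 to 1.22), Calr 1.15-fold (1.13 to 1.18), Hyou1 1.15-fold (1.09 to 1.22), Hsp90b1 1.10-fold, Dnajb11 1.09-fold and Pdia3 1.07-fold. The exception was Herpud1, at 39.2 FPKM in KO and 57.4 FPKM in WT cells, which is 0.682-fold (0.629 to 0.740), with 2.27% of genes lower. It was the only listed gene whose interval lay apart with KO lower at this time. The leading Hspa5 entry alone was at 274.8 FPKM in KO and 209.0 FPKM in WT cells at 0 h, so the size of its difference depends on the entries summed.

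The genes Calr, Dnajb11, Hsp90b1, Hspa5 and Pdia4 were higher in KO cells with deposited intervals apart at both times, which are separate pairs of libraries. They are 5 of 29 listed genes tested at both times and above 0 in all libraries (17.2%), against 3.05% of 9451 genes. Pdia6 is not counted, since its intervals at 0 h lay apart only once moved onto the FPKM. In its leading entry alone Dnajb11 was at 75.3 FPKM in KO and 77.3 FPKM in WT cells at 3 h. No listed gene was lower with intervals apart at both times. Intervals are narrower for their level at high FPKM, and the 5 genes lay between 38.6 and 633.7 FPKM. The 9451 genes include genes near 1 FPKM, so these shares are not for equal levels, and the part of abundance was not tested. At 0 h, markers of other cells differed as well. All 10 neutrophil markers were higher there, 5 of them past the size rule, with a median difference of 1.11 and summed levels of 9082 FPKM in KO and 3639 FPKM in WT cells. All 7 stromal markers tested at 0 h were higher in KO cells, 3 past the rule, with summed levels of 83.2 and 36.3 FPKM over the list, and the part of these 2 lists in the results at 0 h was not tested. All 7 mast cell, basophil and eosinophil markers tested were higher in KO cells, with Hdc past the rule, a median of 0.55 and sums of 50.0 FPKM in KO and 32.6 FPKM in WT cells. Of 4 dendritic cell markers tested, 3 were lower in KO cells, with Cd209a past the rule, a median of -0.73 and sums of 11.6 FPKM in KO and 20.8 FPKM in WT cells, and the part of these lists was not tested either. At 3 h the neutrophil list summed to 5486 FPKM in KO and 5771 FPKM in WT cells, and the differences of Hspa5, Calr, Pdia4, Dnajb11 and Hsp90b1 were 0.31, 0.19, 0.22, 0.16 and 0.09 there, against 0.24, 0.20, 0.33, 0.13 and 0.14 at 0 h. The stromal list at 3 h summed to 56.3 FPKM in KO and 35.4 FPKM in WT cells, and all 6 stromal markers tested there were higher in KO cells, none past the rule. Of 6 mast cell, basophil and eosinophil markers tested at 3 h, 1 passed as higher and 2 as lower (Prg2, Epx and Gata2 in all). Clec9a passed as lower (-1.75) among 5 dendritic cell markers, and Cd14 as higher (1.08) among 10 macrophage markers. The part of these markers at 3 h was not tested.

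**Figure D4:**
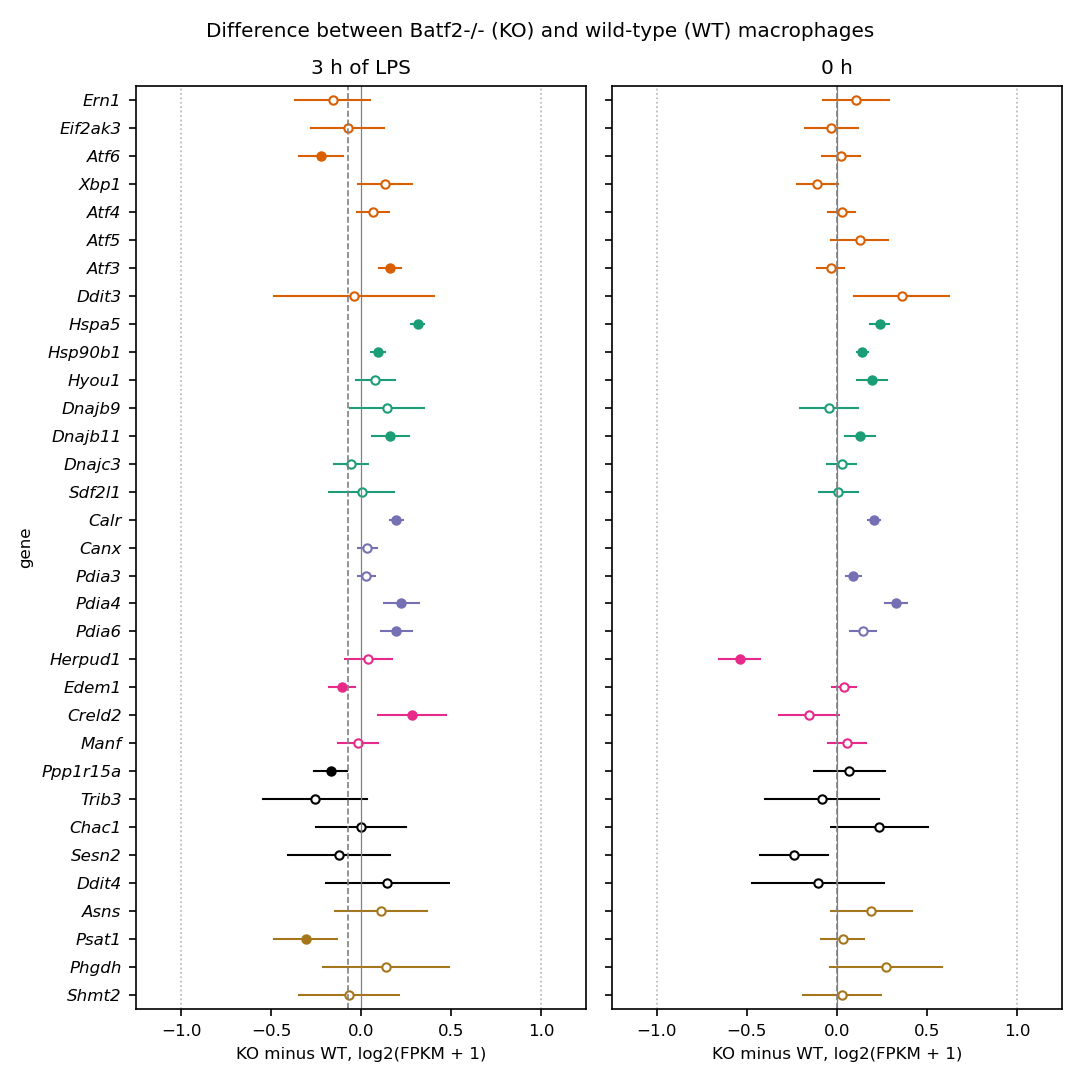
KO minus WT difference, log2(FPKM + 1), for the listed genes at 3 h of LPS (left) and at 0 h (right), coloured by role as in the plot of LPS differences; lines are 95% intervals within libraries, filled points have deposited intervals that do not overlap, the dashed line is the all-gene median and dotted lines the 2-fold rule. No gene drawn reaches the rule; Atf5 at 3 h and Canx at 0 h are not drawn, and Herpud1 at 0 h lies lowest at -0.54.

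The difference between the genotypes' LPS responses, (KO 3 h minus KO 0 h) minus (WT 3 h minus WT 0 h), passed the rule for 1 of 31 listed genes, Atf5, against 2.42% of 11128 genes. With genes listed at 0 left out it passed for none. The next in size was Herpud1 at 0.58 (0.41 to 0.75), where WT cells alone had a lower FPKM at 3 h. Herpud1 was at 39.2, 38.1, 39.2 and 57.4 FPKM. This value, its LPS difference in WT cells and its genotype difference at 0 h thus all rest on the WT library at 0 h. Creld2 followed at 0.44 (0.18 to 0.69), and Psat1 was at -0.34 (-0.55 to -0.13). Xbp1 was at 0.24 (0.05 to 0.43) and Ppp1r15a at -0.24 (-0.46 to -0.02). Atf6 was at -0.25 (-0.41 to -0.09). In all, the intervals of 12 listed genes leave out 0, against 30.2% of all genes, and they carry no error between cultures. In the same comparison all 10 neutrophil markers were below 0, 7 of them past the rule, with a median of -1.20, and all 7 stromal markers tested were below 0 with none past it. The macrophage marker Cd14 passed as higher (1.20). Of 7 mast cell, basophil and eosinophil markers tested, 1 passed as higher and 2 as lower. The part of all these markers in the values of the listed genes was not tested.

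Other genes of the pathway were taken from 7 further lists, whose counts with LPS stand against 7.85% of all genes higher and 28.0% lower in KO cells, and 7.56% and 23.2% in WT cells. Degradation at the ER had 16 genes tested, none of which passed in either genotype with LPS, with medians of -0.35 in KO and -0.27 in WT cells. ER translocation and folding had 23 tested, with 0 higher in both, and 2 lower in KO (Txndc5 and Fkbp11, both foldases) and 0 lower in WT cells. Of 9 tested regulators of the response, Map3k5, the kinase ASK1 downstream of IRE1, passed as higher in KO cells only (11.8 and 3.24 FPKM at 3 h and 0 h in KO cells, 5.89 and 3.53 FPKM in WT cells). Creb3l2, a membrane-bound factor of the ATF6 type, passed as lower in both genotypes, and Wfs1, the ER membrane protein wolframin, in WT cells only (4.63 and 9.83 FPKM in KO, 4.45 and 15.3 FPKM in WT cells). Passing in 1 genotype alone does not show a difference between them, and the difference of responses passed for neither Map3k5 (0.99) nor Wfs1 as deposited. After rescaling Map3k5 passed as higher in both genotypes, Traf2 in KO and Tmbim6 in WT cells. Map3k5 then also passed in the difference of responses, and Creb3l2, Txndc5 and Fkbp11 passed in neither genotype.

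The lists around eIF2 and ATF4 held genes past the rule in both directions with LPS as deposited. Among 14 genes of the eIF2 kinases and eIF2 machinery, 2 passed as higher and 5 as lower in KO cells, and 2 and 4 in WT cells. After rescaling, 2 passed as higher and 0 as lower in KO cells, and 2 and 1 in WT cells. The kinase PKR (Eif2ak2), which senses double-stranded RNA, was at 67.0 and 12.5 FPKM in KO cells and at 59.4 and 13.8 FPKM in WT cells. The other higher gene was Ppp1r15b, the constitutive counterpart of Ppp1r15a, at 62.6 and 27.9 FPKM in KO and 61.4 and 28.4 FPKM in WT cells. The eIF2B subunits Eif2b1 and Eif2b4, in KO cells, and the kinase HRI (Eif2ak1) and Eif2b4, in WT cells, were the largest of the lower genes. Eif2b4 was at 3.09 and 8.87 FPKM in KO and 2.65 and 8.93 FPKM in WT cells.

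Of 15 further ATF4 targets tested, 3 passed as higher in both genotypes, and 7 in KO and 6 in WT cells as lower. After rescaling, 3 passed as higher and 2 as lower in each. The cystine transporter Slc7a11 was at 221.8 and 41.4 FPKM in KO cells and at 154.2 and 36.8 FPKM in WT cells, and its partner Slc3a2 and the stress protein Nupr1 were the others. Slc7a5, the leucine transporter, was at 1.77 and 12.9 FPKM in KO cells and at 2.07 and 12.6 FPKM in WT cells, so genes of this list stood at both ends. Of 20 cytosolic aminoacyl-tRNA synthetases, 1 passed as higher and 6 as lower in each genotype, and after rescaling 1 and 0 in KO and 2 and 0 in WT cells. The higher one as deposited was Wars, the tryptophanyl-tRNA synthetase, also known as an interferon-induced gene, at 86.0 and 18.4 FPKM in KO cells and at 104.5 and 19.1 FPKM in WT cells. Iars was the largest of the lower ones in both genotypes, at 6.63 and 19.6 FPKM in KO and 6.93 and 19.2 FPKM in WT cells.

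Between genotypes at 3 h, 0 of 101 genes tested from these 7 lists passed as higher in KO cells and 2 as lower, against 0.734% and 0.724% of all genes. At 0 h 0 of 102 passed, against 1.33% as higher and 0.387% as lower. Gdf15, a stress cytokine in the ATF4 list, was at 0.60 FPKM in KO and 2.54 FPKM in WT cells at 3 h, and at 5.50 and 5.57 FPKM at 0 h. Hgsnat, a lysosomal acetyltransferase and a known substrate of IRE1-dependent mRNA decay, was at 4.42 FPKM in KO and 29.7 FPKM in WT cells at 3 h, and at 55.9 and 60.9 FPKM at 0 h. It was the only one of 4 decay substrates tested at 3 h to pass between genotypes, and with LPS it passed as lower in both genotypes as deposited. The difference of responses passed as lower for Gdf15 (-1.13) and Hgsnat (-2.38), both as deposited and after rescaling. They were 1 of 15 ATF4 targets and 1 of 5 decay substrates tested in it. Of the 16 degradation, 23 folding, 9 regulator, 14 eIF2 and 20 synthetase genes tested, 0 passed as deposited. Over the 7 lists together the share was thus not above the 2.42% of all genes.

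**Figure D5:**
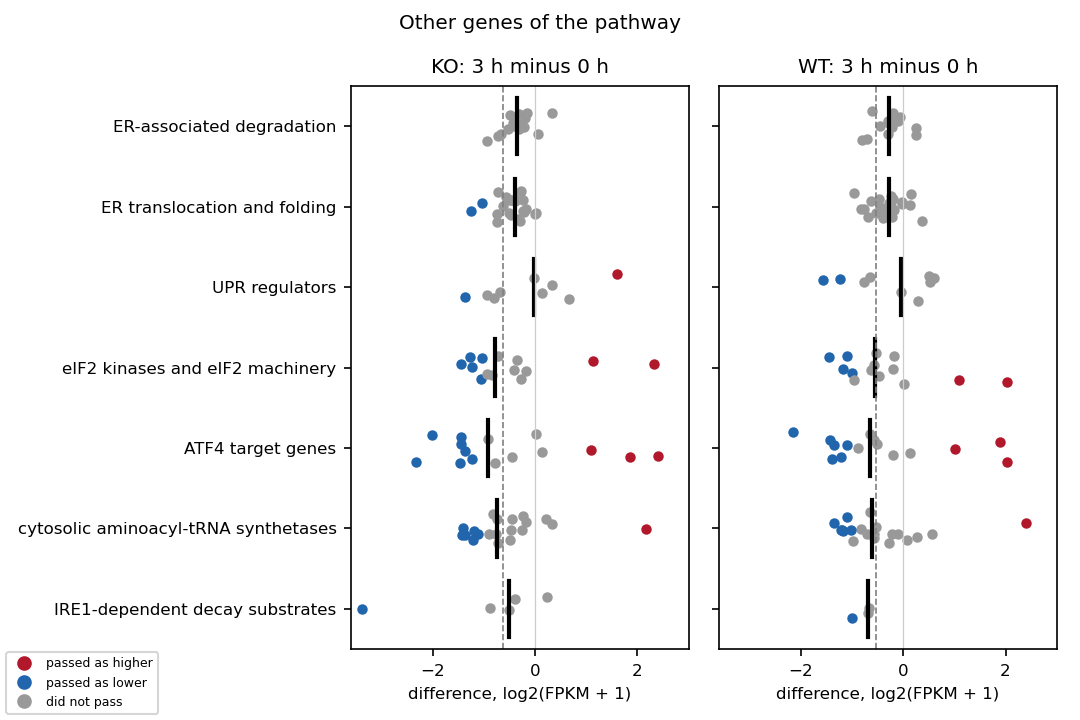
Difference between 3 h and 0 h of LPS, log2(FPKM + 1), for the 7 further lists in KO (left) and WT cells (right); red and blue points passed the size rule, grey ones did not, black bars are list medians and dashed lines the all-gene medians. The degradation and folding lists have a narrow range with medians above the dashed line, and the eIF2, ATF4 and synthetase lists have points past the rule on both sides as deposited.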

How the data were processed

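RNA of 4 macrophage libraries, 1 per group, was sequenced as single reads with a strand-specific kit, per the labels. The authors deposited FPKM per RefSeq transcript with lower and upper limits of a 95% interval and a status. Per the submitters' processing notes, TopHat2 with Bowtie and SAMtools aligned reads to mm9 and Cufflinks computed FPKM; no version is given in the sources used here. All 44 entries of the listed genes overlap their GRCm38.p6 gene, and 95.7% of all 33599 named entries lie inside theirs, so coordinates are GRCm38.

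The 33 genes, the further lists and the motifs were chosen with earlier results of these data known. FPKM and limits were summed over entries of a symbol, and differences used log2(FPKM + 1). The deposited limits do not always hold the FPKM. Calr in KO cells at 3 h, for example, was at 586.0 FPKM with limits of 519.7 to 535.7. For the printed intervals and the difference of responses, limits were moved onto the FPKM at equal relative width. The size rule needed 2-fold, FPKM of at least 1, status OK and limits that do not overlap. That overlap was judged on the deposited limits, before the move. For the difference of responses the interval, combined in quadrature, had to leave out 0. All listed genes are named, and of each further list up to 3 that passed with the largest difference, besides genes given as examples. Alternatives were pseudocounts of 0.1 and 5, other FPKM minimums, median-ratio rescaling, the highest entry, limits in quadrature and no limits. The size rule was tried on simulated libraries with counting error only. They held no variation between cultures, so the simulation cannot show how the rule fares against it. Python 3.11.15, pandas 2.3.3, numpy 2.4.6 and matplotlib 3.10.9 were used. Protein sequences were not used here.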

Additional observations from a re-analysis of the deposited data

How the results depend on the processing

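No paired analysis was possible because each group has 1 library and the labels give no replicate numbers, and for the same reason no library could be left out. Of 1458 values of single listed genes under all alternatives, 1362 kept their side of the rule and moved little, 73 moved, 14 no longer passed and 9 newly passed. The alternatives on FPKM minimums and on limits leave the differences themselves unchanged, and all 162 values of each stayed the same, so the total says little. Under rescaling 97 values stayed the same, 54 moved, 7 no longer passed and 4 newly passed. Rescaling by the median ratio had the widest effect: it moved the median over listed genes to 0.052 for LPS in KO and 0.037 in WT cells, made 3 genes pass as higher in each (Atf3, Hspa5, Ppp1r15a), and left 4 lower in KO and 3 in WT cells. Rescaled, the share of higher among all genes passing was 56.1% in KO and 54.7% in WT cells, against 21.9% and 24.6% as deposited. A pseudocount of 5 moved the median over listed genes for LPS to -0.383 in KO and -0.352 in WT cells, beside -0.378 and -0.331 over all genes. With no filter on low values it was -0.513 in KO and -0.419 in WT cells, beside -0.327 and -0.267. Under either setting the listed genes were thus not less lowered than the median gene. With genes listed at 0 left out, an alternative chosen after seeing the data, 0 listed genes passed between genotypes at 3 h and 0 in the difference of responses. A pseudocount of 0.1 added Trib3 in KO and Ddit3 and Ddit4 in WT cells, and one of 5 dropped Ern1 in KO and Atf5 in WT cells. Using the highest entry only put Psat1 in place of Shmt2 in KO and Ddit3 in place of Shmt2 in WT cells. The Ddit3 entry used was at 0 FPKM in WT cells at 3 h and at 13.7 FPKM at 0 h, so its pass rests on a value listed at 0. Ppp1r15a, Sesn2, Eif2ak3 and Pdia4 passed with LPS in both genotypes under every alternative run. Depth limits the genes near or under 1 FPKM most: Chac1 in KO cells at 3 h was at 0.27 FPKM with an interval of 0.12 to 0.42.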
